A study of Mus musculus with 12 samples.

Results

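The nuclear receptors are a family of transcription factors, and the chromatin around 41 of their genes was described in fibroblasts of mouse embryos (MEFs) and in embryonic stem cells of the mouse (mESCs). A peak counted as a member if it overlapped the body of 1 of these genes, extended by 5 kb at each end. Gene bodies were those of GENCODE M21 on the GRCm38 build. By this rule 266 of the 91354 peaks of the BGI peak set were members, and 257 of the 87027 peaks of the Illumina peak set. Of the 41 genes, 40 had at least 1 member peak on each platform, and Hnf4g had none.

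The assay was Omni-ATAC-seq, whose Tn5 transposase cuts accessible DNA and tags the ends with adapters. The MEFs were sorted as THY1+ cells, and the mESCs as THY1-/SSEA1+/EPCAM+ cells. Cells of both kinds had a C57/Bl6 background, no treatment is named in the labels, and the age of the embryos and the passage of the cultures are not given in the sources used here. MEF libraries carried the numbers 1, 2 and 4 and mESC libraries the numbers 1, 3 and 5. Both sequencers, the BGI DNBSEQ-G400 and the Illumina HiSeqX10, read each of the 6 libraries, which gave 12 samples in 4 groups of 3.

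Nuclear receptors bind DNA through a pair of zinc fingers, and many of them are switched by small lipophilic ligands such as retinoic acid, thyroid hormone, vitamin D or steroids. Members without a known physiological ligand, such as the NR4A receptors, act mainly through how much of them is made. Many receptors of the family recognise the half-site AGGTCA, singly or as a repeat, and the retinoid X receptors (Rxra, Rxrb, Rxrg) are the shared partner in many of the receptor pairs. In mESCs, receptors outside the 41 such as Esrrb and Nr0b1 are known as parts of the pluripotency network.

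The sequences of 6 intron peaks are shown, by their central 300 bases, because they are the 3 with the largest fold change in each direction and carry the widest differences of the family between the cell types. All are read from the plus strand of GRCm38, 5′ to 3′. Capitals mark the half-site AGGTCA, which reads as TGACCT when it lies on the other strand, and the AP-1 site TGAGTCA, which was added to the search after the values had been seen. The first 3 are the peaks that were lower in mESCs.
Rora, chr9:69133504-69133803: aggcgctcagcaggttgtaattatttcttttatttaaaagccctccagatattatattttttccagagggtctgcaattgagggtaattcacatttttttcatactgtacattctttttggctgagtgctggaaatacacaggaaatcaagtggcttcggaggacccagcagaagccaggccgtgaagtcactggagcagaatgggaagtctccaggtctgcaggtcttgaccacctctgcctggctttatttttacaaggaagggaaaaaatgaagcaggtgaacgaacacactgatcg
Rxra, chr2:27715474-27715773: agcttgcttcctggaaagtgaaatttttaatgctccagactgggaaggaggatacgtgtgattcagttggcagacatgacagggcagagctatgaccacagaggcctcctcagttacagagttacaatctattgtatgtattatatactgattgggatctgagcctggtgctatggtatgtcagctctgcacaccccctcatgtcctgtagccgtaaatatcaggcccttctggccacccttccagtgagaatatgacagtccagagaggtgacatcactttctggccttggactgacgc
Nr3c2, chr8:77231268-77231567: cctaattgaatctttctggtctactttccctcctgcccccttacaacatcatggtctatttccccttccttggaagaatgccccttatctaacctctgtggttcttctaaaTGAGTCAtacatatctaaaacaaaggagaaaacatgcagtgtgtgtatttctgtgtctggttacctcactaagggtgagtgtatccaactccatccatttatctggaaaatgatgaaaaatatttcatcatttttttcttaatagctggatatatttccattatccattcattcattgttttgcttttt
The other 3 are the peaks that were higher in mESCs.
Thrb, chr14:17737274-17737573: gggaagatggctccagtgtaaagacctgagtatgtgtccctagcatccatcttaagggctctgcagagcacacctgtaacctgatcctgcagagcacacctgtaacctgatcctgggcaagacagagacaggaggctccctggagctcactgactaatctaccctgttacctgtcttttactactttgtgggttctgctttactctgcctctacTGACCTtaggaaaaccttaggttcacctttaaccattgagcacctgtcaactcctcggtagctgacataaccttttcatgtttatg
Rarb, chr14:16803686-16803985: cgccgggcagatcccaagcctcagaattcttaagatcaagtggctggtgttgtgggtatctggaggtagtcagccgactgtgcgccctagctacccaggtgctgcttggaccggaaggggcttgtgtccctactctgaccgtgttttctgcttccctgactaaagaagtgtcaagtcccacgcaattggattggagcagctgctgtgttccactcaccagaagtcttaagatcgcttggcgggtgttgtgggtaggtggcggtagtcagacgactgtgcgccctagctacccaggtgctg
Rora, chr9:68798256-68798555: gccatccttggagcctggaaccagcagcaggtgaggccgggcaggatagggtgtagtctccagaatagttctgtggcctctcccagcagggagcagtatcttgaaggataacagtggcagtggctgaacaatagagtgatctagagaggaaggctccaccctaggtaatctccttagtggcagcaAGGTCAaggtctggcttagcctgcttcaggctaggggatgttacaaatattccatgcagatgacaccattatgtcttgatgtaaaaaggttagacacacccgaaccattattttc
A half-site was present in the stretches from Thrb and from the higher Rora peak, and an AP-1 site in the one from Nr3c2. The stretches from Rxra, Rarb and the lower Rora peak held neither, although the whole lower Rora peak held 1 half-site outside the bases shown. These matches are a description of the letters in the stretches and not of binding.

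Over its samples the BGI peak set held 15860985 to 16911482 reads in peaks for mESCs and 20085886 to 21662775 for MEFs, and the Illumina peak set 15996202 to 16958488 and 20127546 to 21441767. The authors had down-sampled the reads to a lower number in mESCs than in MEFs. Levels are given as CPM, the read count scaled to the total of reads in the peaks of the set, and since each peak of these 2 sets spans 502 bases, their levels are on the same length. The member peaks took 0.364 to 0.382% of the reads in MEFs and 0.286 to 0.297% in mESCs on BGI. Promoter peaks of 6 of 6 mESC marker genes were higher in mESCs, with summed levels of 142 to 169 CPM against 19.5 to 21.5 CPM in MEFs, and those of 6 of 6 MEF marker genes were lower, with 47.8 to 48.7 CPM against 200 to 232 CPM. Thy1 and Epcam, which stand on these lists, also served in the sort. Of 3 leukocyte markers, Ptprc and Itgam had no promoter peak and Csf1r had one, with 14.4 to 17.0 CPM in MEFs and 1.01 to 2.77 CPM in mESCs. Of 3 endothelial markers, Cdh5 had no promoter peak, and the promoter peaks of Pecam1 and Tek together held 13.8 to 16.8 CPM in MEFs and 14.7 to 17.5 CPM in mESCs, and neither passed the test. The part of other cells in the results was not tested.

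The comparison of mESCs with MEFs asks where the chromatin of the receptor genes differs between a pluripotent cell and a fibroblast. On the BGI platform, 220 of the 266 member peaks differed at an adjusted p under 0.05 (edgeR's quasi-likelihood test over all peaks, Benjamini-Hochberg), which is 82.7% against 84.1% of all peaks tested. The members leaned to MEFs: 69 peaks were higher in mESCs (25.9% of members, against 40.9% of all peaks) and 151 were lower (56.8%, against 43.2%). The median log2 fold change of mESC over MEF was -0.53 over the members and -0.08 over all peaks. A change of at least 2-fold was seen in 48 of the higher and 97 of the lower peaks, beside 33.0% of all peaks higher and 30.1% lower by that much. ATAC-seq of bulk cells gives the mean over the cells, so fewer cells with an open site and a lower opening in each cell cannot be told apart.

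On the Illumina platform, 208 of 257 member peaks differed (80.9%, against 84.5% of all peaks), 72 of them higher in mESCs (28%, against 42.1%) and 136 lower (52.9%, against 42.4%). The median log2 fold change was -0.38 over the members and -0.03 over all peaks, and 53 members were higher and 82 lower by at least 2-fold (33.6% and 28.2% of all peaks). For 224 of the BGI member peaks an Illumina peak covered 50% or more of the width. Both platforms called 54 of these higher and 118 lower, none was called in opposite directions, 8 were called on BGI only, 10 on Illumina only and 34 on neither. The platforms read the same libraries, so that these counts are not a repeat on other cells. The remaining 42 BGI and 33 Illumina member peaks had no such counterpart.

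A peak entered the BGI set through the list of reproducible peaks of either cell type, so a peak on the list of a single cell type was chosen through its level in that cell type. Of the 266 members, 106 were on the MEF list only, and 100 of these were lower (94.3%, against 94.6% of the 29924 peaks of the set on that list only) and 1 higher in mESCs. A further 66 were on the mESC list only, and 56 of these were higher (84.8%, against 93.9% of 33296) and 3 lower. The other 94 members were on both lists, and of these 12 were higher in mESCs (12.8%, against 21.4% of 28134), 48 were lower (51.1%, against 38.9%) and 34 did not pass the test.

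The median was lowest inside the genes. Of the 124 member peaks in gene bodies outside promoters, 33 were higher in mESCs (26.6%) and 82 were lower (66.1%), with a median log2 fold change of -1.12, whereas the 61552 peaks of the whole set outside any promoter had a median of 0.04 and were higher in 45.5% and lower in 44.3% of cases. Of the 99 promoter peaks, which lay within 1 kb of an annotated start site of the gene, 16 were higher (16.2%), 55 were lower (55.6%) and 28 did not pass the test. Their median log2 fold change was -0.39, against -0.13 over the 29802 promoter peaks of any gene, of which 31.3% were higher and 41.0% lower. The 43 peaks in the flanks were higher in 20 cases and lower in 14, with a median of 0.16. Of the member peaks, 18 were promoters of a neighbouring gene only, and 9 of these were higher and 3 lower.

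**Figure D1:**
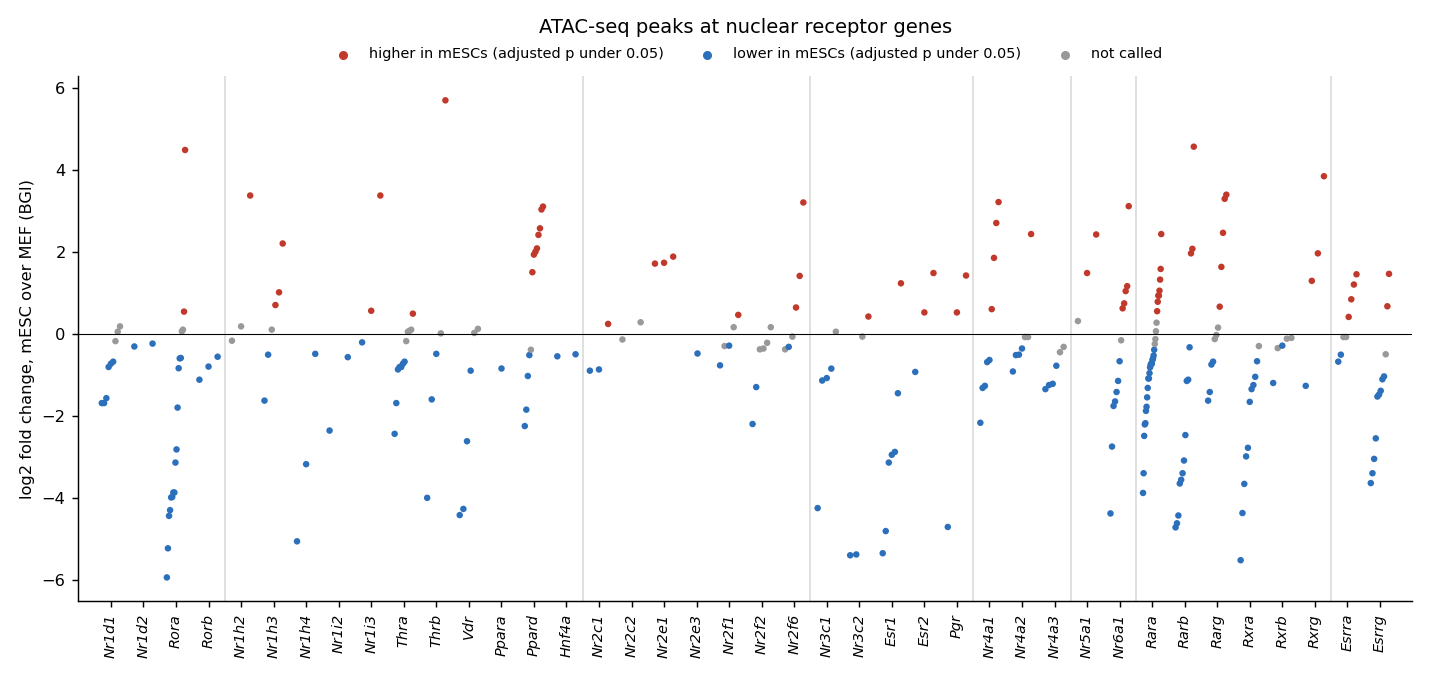
Each point is 1 member peak of the BGI set, with its gene on the x axis, ordered by receptor group, and its log2 fold change of mESC over MEF on the y axis, coloured by the call. Peaks of the same gene fell on both sides of 0 in most genes with many peaks, while the 11 Rxra peaks all lay below it.

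Counts for single genes are those on BGI unless another platform is named. Of the 40 genes with a peak, 22 had peaks called in each direction and 14 had called peaks that were only lower. A further 3 (Nr1h2, Nr2e1 and Nr5a1) had called peaks that were only higher, and Nr2c2 had no called peak on BGI. Over all peaks 40.9% were higher and 43.2% lower, so these counts depend on the number of peaks per gene. They were not set beside counts for other genes. Ppara and Nr2e3 had a single peak each. The peaks were unevenly spread: Rara (32), Rora (18), Rarb (14), Nr6a1 (13) and Ppard (13) together held 90 peaks, or 33.8% of the members.

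Retinoid receptors, which respond to vitamin A derivatives, carried 78 member peaks on BGI, of which 19 were higher in mESCs (24.4%, against 40.9% of all peaks) and 48 lower (61.5%, against 43.2%), with a median log2 fold change of -0.73. On Illumina 16 of 76 were higher and 50 lower (median -0.75). The BGI shares of the groups that follow stand beside the same 40.9% and 43.2%, and their Illumina counts beside 42.1% higher and 42.4% lower of all peaks. Rxra, a partner of many other receptors, was lower throughout: 10 of its 11 peaks were lower and the other one, at the promoter, had a log2 fold change of -0.30 that did not pass the test. Summed over its peaks, Rxra had 189, 174 and 184 CPM in MEF libraries 1, 2 and 4 and 50.1, 52.4 and 52.1 CPM in mESC libraries 1, 3 and 5. No MEF value came near an mESC value, and the ratio of the means was 0.281.

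The Rxra intron peak at chr2:27715373-27715874, whose sequence is printed above, had 22.9, 20.5 and 16.5 CPM in MEFs (20 ± 3.26, SD, n = 3) and 0.630, 0.355 and 0.373 CPM in mESCs (0.453 ± 0.154). It was thus close to closed in every mESC library and open in every MEF library. The log2 fold change was -5.52 (SE 0.26, adjusted p = 3.62e-12) on BGI and the Illumina samples gave 18.7, 21.1 and 17.8 against 0.438, 0.118 and 0.434 CPM. At the most open Rxra promoter peak (chr2:27740181-27740682), MEFs had 29.0, 24.6 and 24.9 CPM and mESCs 11.3, 10.9 and 10 CPM, a log2 fold change of -1.35 (SE 0.13, adjusted p = 1.89e-08). The promoter thus kept more of its signal in mESCs than the intron peak did.

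Rara, a broadly expressed retinoic acid receptor, had the most peaks of the family, with 8 higher in mESCs, 20 lower and 4 that did not pass the test, at 56.0 peaks per 100 kb of its extended body. The intron peak that fell the most, at chr11:98947922-98948423, had 18.1, 20.3 and 17.1 CPM in MEFs and 0.694, 1.18 and 2.05 CPM in mESCs (log2 fold change -3.88, SE 0.25, adjusted p = 1.43e-10). Farther along the gene, the intron peak at chr11:98953272-98953773 had 0.877, 1.34 and 1.74 CPM in MEFs and 8.83, 6.56 and 6.96 CPM in mESCs (2.43, SE 0.28, adjusted p = 2.72e-07). In neither peak did the groups overlap. Over all peaks of Rara the sums were 419 ± 9.83 CPM in MEFs and 307 ± 8.65 CPM in mESCs (SD, n = 3).

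Rarb is itself known as a target gene of retinoic acid, and its locus showed large changes in both directions. It had 14 peaks, 11 lower and 3 higher. In the intron peak at chr14:16554481-16554982 the MEFs had 22.9, 21.4 and 19.6 CPM and the mESCs 0.820, 0.887 and 0.808 CPM (log2 fold change -4.72, SE 0.20, adjusted p = 1.24e-12), and a further intron peak at chr14:16510531-16511032 had a log2 fold change of -4.62 (SE 0.27, adjusted p = 4.28e-11). The intron peak at chr14:16803585-16804086, also shown above as sequence, went the other way, with 0.462, 0.348 and 0.448 CPM in MEFs and 10.2, 12.5 and 8.88 CPM in mESCs (4.56, SE 0.29, adjusted p = 1.32e-10). All 3 MEF libraries were under 1 CPM there. The most open Rarb promoter peak moved far less, with 20.5, 22.4 and 25.8 CPM in MEFs and 18.3, 20 and 18.8 CPM in mESCs (-0.33, SE 0.12, adjusted p = 0.0139). This call was lost without MEF library 4 (-0.25, adjusted p = 0.0644), and that on Illumina (-0.31, adjusted p = 0.0243) was lost without MEF library 1, mESC library 1 or mESC library 5 (adjusted p = 0.0891, 0.0749 and 0.127).

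Rarg, the third retinoic acid receptor, had 5 peaks higher and 4 lower of 12. An exon peak at chr15:102235548-102236049 had 1.75, 2.78 and 2.39 CPM in MEFs and 23.8, 26.3 and 25.8 CPM in mESCs (log2 fold change 3.39, SE 0.17, adjusted p = 9.47e-12), and an intron peak at chr15:102240447-102240948 had 0.415, 1.89 and 0.797 against 11.2, 13.1 and 7.21 CPM (3.29, SE 0.37, adjusted p = 2.04e-07). Both were open in every mESC library. Its most open promoter peak did not pass the test, at 27.6 ± 2.39 CPM in MEFs and 28.3 ± 1.89 CPM in mESCs (-0.03, adjusted p = 0.792).

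Rxrg had its promoter and its gene body moving apart. The most open promoter peak had 19.2, 21.2 and 19.4 CPM in MEFs and 8.76, 8.34 and 8.95 CPM in mESCs (log2 fold change -1.27, SE 0.13, adjusted p = 7.24e-08). The other 3 of its 4 peaks were higher in mESCs, led by the intron peak at chr1:167635674-167636175 with 0.785, 0.497 and 0.597 CPM in MEFs and 9.33, 10.9 and 8.26 CPM in mESCs (3.84, SE 0.28, adjusted p = 7.38e-10). Rxrb had 5 peaks, of which 2 were lower, and its most open promoter peak, which is also that of Slc39a7, had a log2 fold change of -0.29 (adjusted p = 0.00946; without MEF library 1 -0.20, adjusted p = 0.127).

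**Figure D2:**
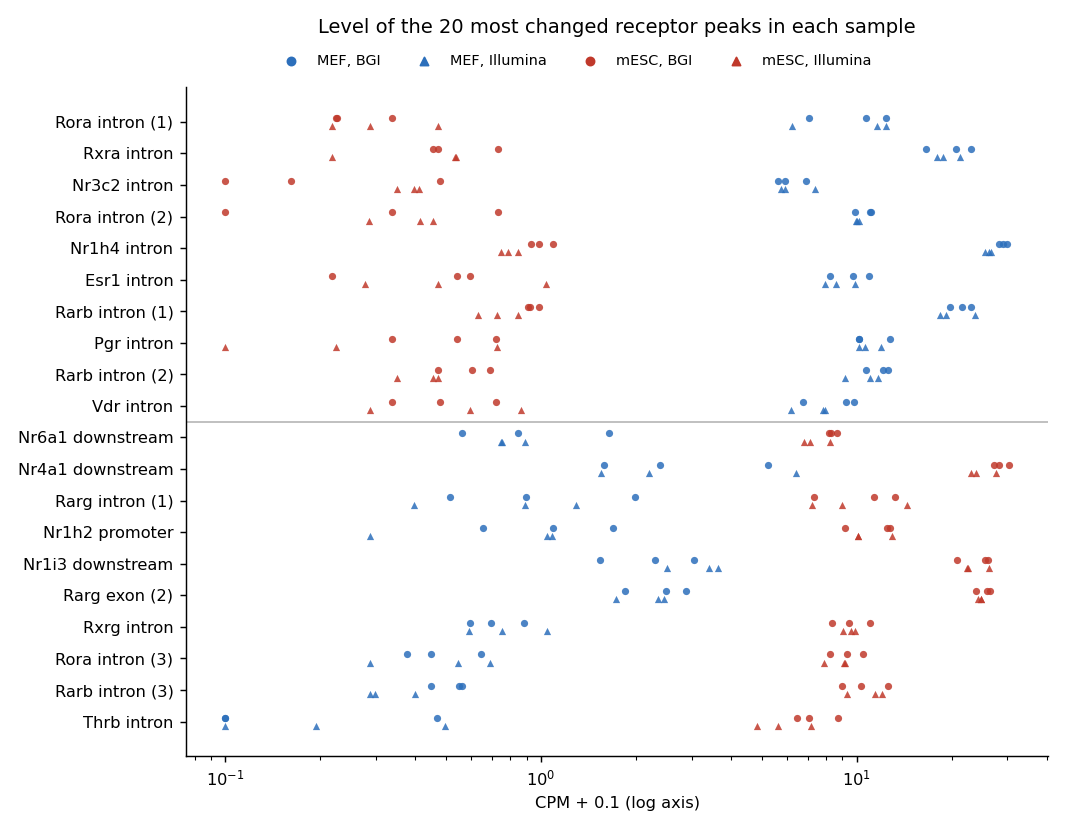
The CPM of each library on BGI (circles) and Illumina (triangles) is shown for the 10 member peaks with the largest fold change in each direction that were called on both platforms, at most 2 per gene, on a log axis after adding 0.1, with MEFs in blue and mESCs in red. In none of the 20 peaks did a MEF value overlap an mESC value of the same platform. Each was on the BGI peak list of only the cell type with the higher level. All were picked for a large change, so this separation follows from the choice.

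Thyroid hormone, vitamin D, lipid and xenobiotic receptors, many of which pair with an RXR, had 56 peaks, of which 16 were higher in mESCs (28.6%) and 29 lower (51.8%), with a median log2 fold change of -0.44. The Illumina set held 51, with 15 higher (29.4%), 20 lower (39.2%) and a median of -0.23. The lower share thus lay above that of all peaks on BGI and below the 42.4% of all peaks on Illumina. Thrb, a thyroid hormone receptor, held the peak with the largest rise of the family. The intron peak at chr14:17737173-17737674 had 0.369, 0.0 and 0.0 CPM in MEFs, from 8, 0 and 0 reads, and 8.64, 6.39 and 6.96 CPM in mESCs, from 137, 108 and 112 reads (5.69, SE 0.55, adjusted p = 2.65e-08). The Illumina samples had 0.0933, 0.397 and 0.0 CPM against 7.06, 4.72 and 5.52 CPM. Since MEF libraries 2 and 4 held no read on BGI, this fold change depends on the prior count of the fit and is not a bound. The most open Thrb promoter peak did not pass the test (0.01, adjusted p = 0.922), and the other of its 2 promoter peaks on BGI was lower.

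Nr1h4, the bile acid receptor FXR, had 3 peaks on each platform. On Illumina 2 of them were lower, and on BGI all 3 were in introns and lower. The one at chr10:89531212-89531713 had 29.7, 28.2 and 28.9 CPM in MEFs and 0.883, 0.828 and 0.994 CPM in mESCs (log2 fold change -5.06, SE 0.17, adjusted p = 1.64e-13). The libraries of each cell type lay closely together there. Over the gene the sums were 72.5 ± 1.78 CPM in MEFs and 11.7 ± 0.413 CPM in mESCs, a ratio of 0.161. No promoter peak of Nr1h4 was in the set.

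Vdr, the vitamin D receptor, had 4 of 6 peaks lower and none higher. The intron peak at chr15:97887347-97887848 had 9.69, 9.15 and 6.67 CPM in MEFs and 0.378, 0.237 and 0.621 CPM in mESCs (log2 fold change -4.42, SE 0.34, adjusted p = 1.29e-09). The most open promoter peak was at 15.1 ± 1.75 CPM in MEFs and 16 ± 0.956 CPM in mESCs (0.02, adjusted p = 0.906), so the summed ratio of 0.358 came from peaks other than this one.

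Ppard, a lipid-sensing receptor that is widely expressed, was the only gene among the 5 with the most peaks in which more peaks were higher (8) than lower (4). The peak at an internal start site, chr17:28291858-28292359, had 0.692, 0.696 and 1.05 CPM in MEFs and 8.2, 5.2 and 7.58 CPM in mESCs (log2 fold change 3.03, SE 0.30, adjusted p = 4.69e-08). The most open promoter peak went the other way, at 25.5 ± 1.32 CPM in MEFs and 18.6 ± 0.662 CPM in mESCs (-0.52, SE 0.11, adjusted p = 0.00024). Ppara, its relative with a known role in fatty acid oxidation, had a single peak on BGI, at the promoter, with 29.1, 28.5 and 27.6 CPM in MEFs and 16.6, 17.6 and 16 CPM in mESCs (-0.83, SE 0.11, adjusted p = 1.24e-06).

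Nr1h2, an oxysterol receptor (LXR beta), had a promoter peak at chr7:44551685-44552186 with 0.554, 0.994 and 1.59 CPM in MEFs and 12.4, 9.05 and 12.6 CPM in mESCs (log2 fold change 3.37, SE 0.29, adjusted p = 6.10e-09), while its more open promoter peak had 20.3, 21.9 and 27.7 against 25.0, 30.3 and 27.3 CPM and did not pass the test (0.18, adjusted p = 0.184), though it did without MEF library 4 (0.31, adjusted p = 0.0242). Its Illumina counterpart was called higher (0.24, adjusted p = 0.0403), and that call was lost without MEF library 1 or 2 or mESC library 3 or 5 (0.11 to 0.27, adjusted p from 0.0528 to 0.316) and with the BGI columns on the same peak (0.13, adjusted p = 0.339). At this more open peak the ranges of the cell types overlapped on BGI. Downstream of Nr1i3, the xenobiotic receptor CAR, the peak at chr1:171221513-171222014 had 2.95, 2.19 and 1.44 CPM in MEFs and 20.6, 25.9 and 25.3 CPM in mESCs (3.37, SE 0.21, adjusted p = 1.01e-10). That peak is the promoter of Tomm40l. Nr1h3 (LXR alpha) had 3 peaks higher and 2 lower of 6, Nr1i2 (the xenobiotic receptor PXR) and Hnf4a, a regulator of liver and gut genes, had 2 lower peaks each, and Thra had 7 lower and 1 higher of 12. On Illumina Nr1h3 had 1 higher and 0 lower of 3, Nr1i2 and Hnf4a had 1 lower of 2 each, and Thra had 5 lower and 1 higher of 10.

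Hnf4g, a relative of Hnf4a, spans 150.0 kb at chr3:3508030-3658052 and had no peak in either set. Each of the 12 samples had 2 or 3 summit calls within its extended body, and the highest −log10 p of these was between 5.95 and 22 per sample, beside a median of 8.44 to 11.7 over all summits of a sample. These calls did not reach the authors' reproducible lists.

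The clock receptors Nr1d1, Nr1d2, Rora and Rorb, which repress or activate transcription from the same response elements, were the group with the fewest higher peaks, at 2 of 32 (6.25%), and with 25 lower (78.1%, median log2 fold change -0.82). On Illumina they had 1 higher and 20 lower of 27 (median -0.76). The most open Nr1d1 promoter peak (chr11:98775182-98775683), had 39.5, 35.0 and 42.9 CPM in MEFs and 12.7, 11.1 and 14.4 CPM in mESCs, with no overlap (-1.69, SE 0.12, adjusted p = 4.09e-10). The promoter of its paralog Nr1d2 was the most open promoter of the family in MEFs and moved little, from 108, 115 and 103 CPM to 89.3, 98.6 and 88.5 CPM (-0.31, SE 0.08, adjusted p = 0.0027). Nr1d1 and Thra lie tail to tail and share 6 member peaks, 4 of them lower and 0 higher on BGI. These are counted once in the totals, but for both genes and for both of their receptor groups.

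Rora had 14 of 18 peaks lower and 2 higher. The intron peak at chr9:69133403-69133904, the lowest of the family in fold change, had 12.3, 10.6 and 6.97 CPM in MEFs and 0.126, 0.237 and 0.124 CPM in mESCs, from 2, 4 and 2 reads (-5.94, SE 0.39, adjusted p = 2.06e-10). A further intron peak, at chr9:68813221-68813722, had 11, 9.74 and 10.9 CPM in MEFs and 0.630, 0.237 and 0.0 CPM in mESCs (-5.23, SE 0.41, adjusted p = 2.06e-09). Between the start of the gene and the latter peak lay the intron peak at chr9:68798155-68798656, where MEFs had 0.277, 0.547 and 0.349 CPM and mESCs 9.20, 8.10 and 10.4 CPM (4.48, SE 0.30, adjusted p = 3.24e-10). Each of these peaks was near 0 in all 3 libraries of 1 cell type. The most open Rora promoter peak had 28.7 ± 1.84 CPM in MEFs and 16.8 ± 0.979 CPM in mESCs (-0.84, SE 0.11, adjusted p = 1.28e-06), and all 3 Rorb peaks were lower.

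**Figure D3:**
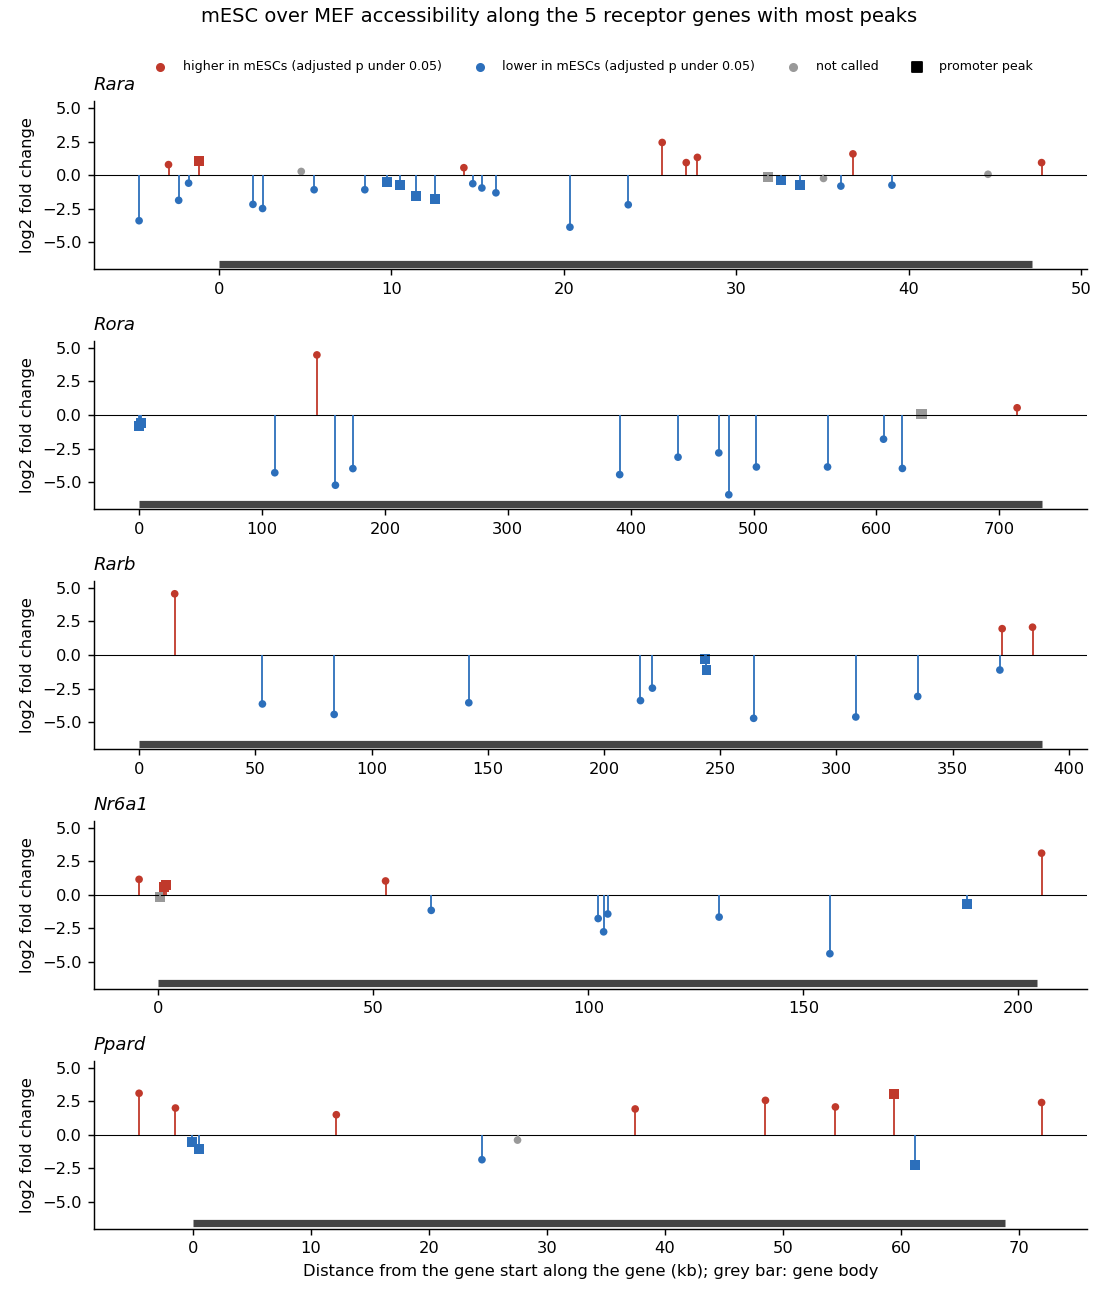
Member peaks of Rara, Rora, Rarb, Nr6a1 and Ppard are placed by their distance from the start of the gene on the x axis, with the log2 fold change of mESC over MEF on the y axis. Circles and squares are peaks outside and at promoters and the grey bar is the gene body. Peaks in red were higher and peaks in blue lower, and each gene held both, with -5.94 and 4.48 both in Rora introns.

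Steroid receptors had 22 peaks, 6 higher (27.3%) and 14 lower (63.6%), with a median log2 fold change of -1.11. The median was -0.48 on Illumina, where 5 of 20 peaks were higher and 10 lower. An Illumina counterpart existed for the most open promoter peak of 35 genes, but not for that of Nr2e1 (1.71 on BGI). Among these 35, only the peak of Esr1, the estrogen receptor alpha, was higher by at least 2-fold on both platforms. Esr1 had 4.71, 3.83 and 3.98 CPM there in MEFs and 10.7, 11.1 and 9.01 CPM in mESCs (1.23, SE 0.19, adjusted p = 1.13e-05; Illumina 1.12, adjusted p = 4.86e-06). Its other 6 peaks were lower, such as the intron peak at chr10:4897765-4898266 with 10.8, 8.10 and 9.66 CPM in MEFs and 0.441, 0.118 and 0.497 CPM in mESCs (-4.81, SE 0.34, adjusted p = 4.98e-10). The lower peaks included the other 2 of its 3 promoter peaks, at chr10:4709959-4710460 (-1.45, adjusted p = 2.72e-05) and chr10:4612203-4612704 (-2.95, adjusted p = 5.54e-08), so its start sites differed in direction among themselves, and the ratio of the summed means was 0.349. Over the 4 Illumina peaks of Esr1, 1 higher and 3 lower, this ratio was 0.543. The most open promoter peak of Esr2 was higher by a smaller amount (0.52, adjusted p = 0.00786), whereas the other of its 2 promoter peaks on BGI was lower.

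Pgr, the progesterone receptor, had 2 of 3 peaks higher and 1 lower, with a ratio of the summed means of 1.23. Its most open promoter peak had 9.37, 8.4 and 9.11 CPM in MEFs and 11, 17.7 and 11.7 CPM in mESCs (log2 fold change 0.52, SE 0.18, adjusted p = 0.0133), with mESC library 3 well above the other mESC libraries. Without that library neither platform kept the call (BGI 0.30, adjusted p = 0.119; Illumina 0.35, adjusted p = 0.0638). The exon peak at chr9:8901592-8902093 was higher as well, with 6.0, 7.16 and 6.92 CPM in MEFs and 19.4, 19.7 and 17.0 CPM in mESCs (1.42, SE 0.15, adjusted p = 7.28e-08). The intron peak at chr9:8937608-8938109 had 12.6, 10.1 and 10.1 CPM in MEFs and 0.441, 0.237 and 0.621 CPM in mESCs (-4.71, SE 0.30, adjusted p = 1.40e-10).

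Nr3c1, the glucocorticoid receptor, had 4 of 5 peaks lower and none higher, and its most open promoter peak had 29.6, 24.9 and 34.0 CPM in MEFs and 14.6, 14.6 and 12.7 CPM in mESCs (log2 fold change -1.14, SE 0.13, adjusted p = 1.79e-07). For Nr3c2, the mineralocorticoid receptor, the most open promoter peak was at 45.3 ± 0.230 CPM in MEFs and 45.1 ± 1.91 CPM in mESCs and did not pass the test (-0.07, SE 0.09, adjusted p = 0.454). The other of its 2 promoter peaks on BGI was higher, while 0 of the 5 Nr3c2 peaks on Illumina were higher. Its intron peak at chr8:77231167-77231668, the one with an AP-1 site in the sequence shown, had 5.82, 6.81 and 5.53 CPM in MEFs and 0.378, 0.0 and 0.0621 CPM in mESCs, from 6, 0 and 1 reads (-5.40, SE 0.50, adjusted p = 1.85e-08). mESC library 3 held no read there on BGI, so this fold change too depends on the prior count.

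The estrogen related receptors Esrra and Esrrg, orphan relatives of Esr1 with known roles in mitochondrial metabolism, had 20 peaks, 6 higher (30%) and 11 lower (55%, median log2 fold change -0.60), and 6 higher and 10 lower of 18 on Illumina (median -0.56). Esrrg had 9 lower and 2 higher of 12. Its most open promoter peak had 10.1, 10.6 and 10.2 CPM in MEFs and 4.16, 4.14 and 6.71 CPM in mESCs (log2 fold change -1.11, SE 0.20, adjusted p = 5.79e-05), with mESC library 5 the highest of the mESC libraries and still below every MEF library. The most open Esrra promoter peak was among the most open of the family and did not pass the test, at 70.8 ± 0.937 CPM in MEFs and 69.9 ± 8.92 CPM in mESCs (-0.08, SE 0.10, adjusted p = 0.428).

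The NR4A receptors, which are known as immediate early genes, had 22 peaks, 5 higher (22.7%) and 13 lower (59.1%), with a median log2 fold change of -0.51. Of 24 such Illumina peaks 6 were higher and 12 lower (median -0.29). At the most open Nr4a1 promoter peak, MEFs had 52.8, 63.2 and 69.9 CPM and mESCs 23.2, 30.8 and 26.5 CPM (-1.27, SE 0.12, adjusted p = 1.55e-08). The peak downstream of the gene at chr15:101277125-101277626 had 1.48, 2.29 and 5.13 CPM in MEFs and 30.3, 27.1 and 28.1 CPM in mESCs (3.21, SE 0.26, adjusted p = 2.70e-09). MEF library 4 was the highest of the MEFs at both peaks. Summed over the 9 Nr4a1 peaks, MEF libraries 1, 2 and 4 had 114, 139 and 182 CPM, around the 130, 134 and 128 CPM of the mESC libraries, so the sums overlapped.

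The most open promoter peak of Nr4a3 had 30.2, 29.6 and 36.4 CPM in MEFs and 13.9, 13.5 and 15.8 CPM in mESCs (log2 fold change -1.22, SE 0.12, adjusted p = 2.09e-08), and its Illumina counterpart, at -0.99, was just short of 2-fold. That of Nr4a2 did not pass the test, at 20.3 ± 2.24 CPM in MEFs and 20 ± 0.37 CPM in mESCs (-0.08, adjusted p = 0.499). Whether the 3 paralogs differed in their change was not tested.

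COUP-TF, testicular and tailless receptors had 26 peaks with 8 higher and 8 lower (30.8% each, median log2 fold change -0.18). The Illumina set had 32 such peaks with 15 higher (46.9%) and 12 lower (37.5%, median -0.03), or 84.4% called beside 61.5% on BGI. Nr2e1, the tailless homolog known from neural stem cells, stood at the open end in mESCs: its 3 peaks on BGI were all higher, and summed they gave 9.74, 10.9 and 13.7 CPM in MEFs and 40.2, 40.5 and 44.4 CPM in mESCs, a ratio of 3.63. The Illumina set had 8 peaks at this gene, all higher, with a ratio of 3.46. The promoter peak had 1.89, 2.24 and 3.73 CPM in MEFs and 8.32, 8.63 and 9.88 CPM in mESCs (1.71, SE 0.24, adjusted p = 4.10e-06), lies within 1 kb of Ostm1 as well, and had no Illumina peak overlapping by 50%. Nr2f2, which encodes COUP-TFII of mesenchymal cells, had 2 of 6 peaks lower on BGI and 5 of 7 on Illumina. Its most open promoter peak did not pass the test (0.16, adjusted p = 0.256). Nr2f1 had 1 higher and 2 lower of 5 on BGI, and 2 higher and 3 lower of 6 on Illumina. Nr2f6 had 3 higher and 1 lower of 6, and the lower one, its most open promoter peak (-0.32, adjusted p = 0.0183), lost the call without MEF library 1 (-0.20, adjusted p = 0.181) or mESC library 5 (-0.24, adjusted p = 0.0989). Of the testicular receptors, Nr2c1 had 1 higher and 2 lower peaks, and neither of the 2 Nr2c2 peaks passed the test on BGI. On Illumina 1 of them was higher (0.29, adjusted p = 0.0224), and without mESC library 3 the other was called lower on both platforms (-0.19, adjusted p = 0.0179 on BGI and 0.00745 on Illumina). The single Nr2e3 peak was lower (-0.47, adjusted p = 0.00156).

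Nr5a1 (steroidogenic factor 1), known from adrenal and gonad, and Nr6a1 (germ cell nuclear factor), known to repress Pou5f1 as embryonic cells differentiate, had 16 peaks, 7 higher and 7 lower (43.8% each, median log2 fold change 0.08), and 8 higher and 5 lower of 14 on Illumina (median 0.45). Over its 3 peaks Nr5a1 had 12.1, 14.1 and 15.1 CPM in MEFs and 34.6, 33.5 and 35.9 CPM in mESCs, a ratio of 2.51 with no overlap. Its promoter peak did not pass the test on BGI (0.31, adjusted p = 0.134; without MEF library 4 0.44, adjusted p = 0.0434) and was higher on Illumina (0.51, adjusted p = 0.00451), and the called peaks on BGI lay downstream of the gene. The downstream peak of Nr6a1 at chr2:38722029-38722530 had 0.462, 0.746 and 1.54 CPM in MEFs and 8.07, 8.16 and 8.57 CPM in mESCs (3.11, SE 0.32, adjusted p = 6.54e-08). The most open Nr6a1 promoter peak was higher too, with 13.2, 10.8 and 14.4 CPM in MEFs and 18, 23.8 and 19.8 CPM in mESCs (0.62, SE 0.15, adjusted p = 0.000792), whereas 6 of its intron peaks were lower, such as the one at chr2:38823880-38824381 with 15.6 ± 0.994 CPM in MEFs and 2.43 ± 0.741 CPM in mESCs (-2.75, SE 0.20, adjusted p = 1.02e-09).

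Taking for each gene the promoter peak with the highest mean level gave 36 genes, of which 5 were higher in mESCs, 18 were lower and 13 did not pass the test (median log2 fold change -0.30). Over the promoter peaks of any gene 31.3% were higher and 41.0% lower, but these were not limited to the most open one of each gene. On Illumina 35 of these peaks had a counterpart, and both platforms called 4 higher and 18 lower. A change of at least 2-fold on both platforms was seen in 7 genes: Esr1 was higher, and Nr1d1, Nr3c1, Nr4a1, Rxra, Rxrg and Esrrg were lower, with Illumina log2 fold changes of -1.63, -1.03, -1.10, -1.29, -1.46 and -1.22 in that order. The most open peak was chosen by its mean over both cell types. Over all 99 promoter peaks of the members the log2 fold change ran from -2.95 to 3.37, with 8 higher and 25 lower by at least 2-fold.

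**Figure D4:**
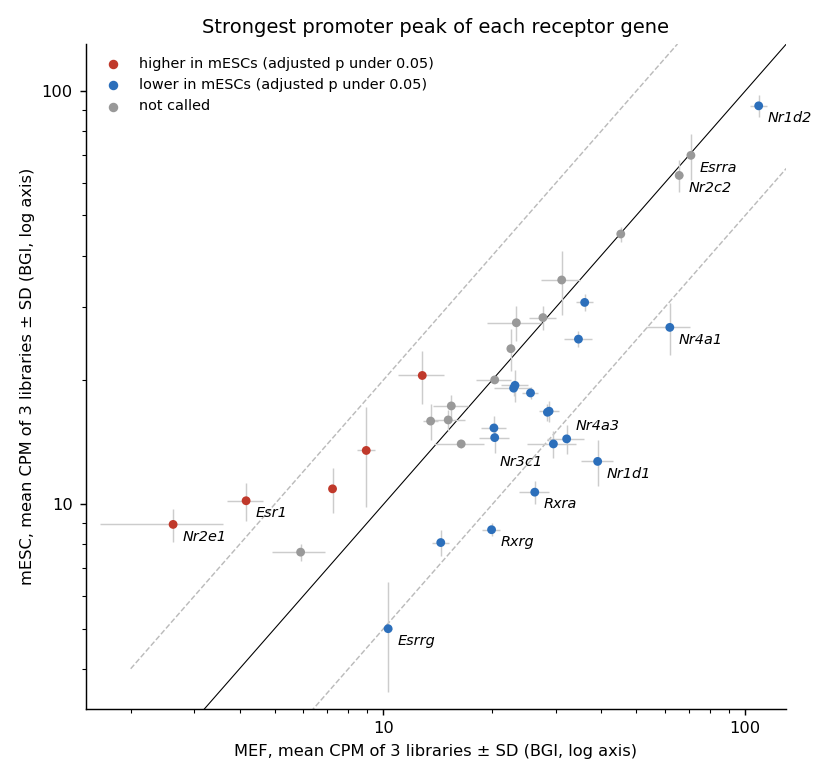
For the most open promoter peak of each of 36 genes on BGI, the mean CPM of the 3 MEF libraries is on the x axis and that of the 3 mESC libraries on the y axis, both log axes, with SD as bars, the line of equality in black and the 2-fold lines dashed. Most genes lie between the dashed lines, with Nr1d1 the farthest below and Nr2e1 the farthest above.

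The half-site AGGTCA was searched on both strands of every BGI peak. It was in 66 of 266 member peaks (24.8%), beside 27.7% of the 91285 peaks of the set whose sequence could be read. Member peaks that were higher in mESCs held it in 24 of 69 cases (34.8%) and those that were lower in 29 of 151 (19.2%), and over all peaks the shares were 33.4% and 23.7%. Of the longer motifs that contain the half-site, AAAGGTCA, a site known for NR4A receptors, was in 2.26% of member peaks and 2.46% of all peaks, and TCAAGGTCA, known for estrogen related receptors, in 1 member peak (0.376%) and 1.42% of all. A direct repeat of the half-site with 1 base between was in 1 member peak and in 0.103% of all. Repeats spaced by 2, 4 or 5 bases and the palindromic steroid site were in 0 member peaks and in 0.0383, 0.0307, 0.0394 and 0.011% of all.

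The AP-1 site TGAGTCA and the octamer ATGCAAAT, the latter bound by POU factors, were added after the values had been seen. The AP-1 site was in 13.2% of member peaks and 19.9% of all peaks, and among those lower in mESCs in 24 of 151 members (15.9%) and 28.5% of all. The octamer was in 4 members (1.5%) and in 3.21% of all peaks. Among the 10 named peaks in each direction, the half-site was in 5 of the higher and 2 of the lower, and the AP-1 site in 1 and 3. Member shares of the half-site thus lay near those of the whole set in both directions, and no motif was tested.

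Genes that supply the ligands or mediate the response were followed by their most open promoter peak, to be read beside the 31.3% higher and 41.0% lower of all promoter peaks. Of 12 genes of retinoid metabolism and transport, 10 had a promoter peak on BGI, with 2 higher in mESCs, 4 lower and 4 that did not pass the test, the same counts as on Illumina. The higher ones were those of Cyp26a1 and Cyp26c1, which break down retinoic acid, with 2.80 ± 0.255 CPM in MEFs and 10.5 ± 0.320 CPM in mESCs for the former (log2 fold change 1.84, adjusted p = 9.38e-08) and 1.5 ± 0.445 and 7.26 ± 1.63 CPM for the latter (2.21, adjusted p = 1.05e-06). Stra6, a receptor for the retinol carrier, went the other way, with 16 ± 2.72 and 2.75 ± 0.566 CPM (-2.61, adjusted p = 1.95e-09). Of 12 coregulator genes, 2 were higher, 4 lower and 6 did not pass the test on BGI, against 2, 6 and 4 on Illumina, and the promoter peak of the coactivator Ppargc1a (-2.10, adjusted p = 2.97e-08) was lower by at least 2-fold on both platforms.

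Of 7 receptors of the family that are not among the 41 genes, 4 had a promoter peak on BGI. Esrrb was higher in mESCs, with 25.2 ± 4.10 CPM against 0.337 ± 0.0840 CPM in MEFs (log2 fold change 6.12, adjusted p = 6.55e-13), as were Nr0b1 (2.71, adjusted p = 1.17e-08) and Nr5a2 (1.80, adjusted p = 7.45e-09). The most open Nr5a2 promoter peak of the Illumina set was another one, with less than 50% overlap, and had a log2 fold change of 0.54. Pparg did not pass the test (-0.19, adjusted p = 0.283). The rise at Esrrb was larger than that of any of the 36 member promoters.

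Each library was read on both instruments, so the platforms can be compared within a library. In the MEF peak set of both platforms 221 of 61891 peaks were members, and in the mESC set 187 of 67063. Members of these sets are 502 to 1241 bases long, so their CPM were compared within a peak only. Without the library as a block, 16 MEF member peaks differed between BGI and Illumina (7.24%, against 4.06% of all peaks) and 16 mESC member peaks (8.56%, against 3.23%). With the library as a block, 77 differed in MEFs (34.8%, against 29.2%), 20 higher and 57 lower on BGI, and 61 in mESCs (32.6%, against 21.3%), 6 higher and 55 lower. Over all peaks the block gave 8604 higher and 9471 lower on BGI in MEFs, and 3873 higher and 10431 lower in mESCs. Leaving out a library, which also leaves fewer samples for the fit, changed the counts without the block: without MEF library 1 or 2 the MEF count was 0 (36 and 31 at an unadjusted p under 0.05) and without library 4 it was 42, and without mESC library 1 or 5 the mESC count was 0 (39 and 28) and without library 3 it was 9. In these fits, which leave out GC content, no member peak differed by 2-fold in either cell type, and the log2 ratio of BGI over Illumina ranged from -0.88 to 0.87 in MEFs and from -0.98 to 0.74 in mESCs.

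The member peaks lower on BGI were GC rich and mostly promoters, and the GC content of all peaks lower on BGI was alike, with medians of 72.3% in MEFs and 72.4% in mESCs beside 71.3% and 72.7% over the members. In MEFs, 13 of the 15 lower peaks without the block were promoter peaks. The GC content of the 15 was 64.7 to 80.4%, beside a median of 56.2% over the members and 51.4% over all peaks. In mESCs all 15 were promoter peaks, at 65 to 80.6%, beside medians of 58.1% over the members and 52.8% over all peaks. The Nr2f6 promoter peak, at 80.4% GC, had 25.8, 21.8 and 23.6 CPM on BGI and 42.1, 44.2 and 42.8 CPM on Illumina in MEFs (log2 ratio -0.88, adjusted p = 0.00479, with the block 5.03e-19). Once GC content was included with the block this ratio was -0.06 (adjusted p = 0.475). With that correction 42 MEF member peaks differed (23.1% of all peaks did), 38 higher and 4 lower on BGI, and 23 mESC member peaks (11% of all peaks did), 14 higher and 9 lower, so that the split of directions among the members turned. The directions over all peaks were not counted for this fit.

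The 1 member peak higher on BGI in each cell type without the block was the same Rarb intron peak. In MEFs it had 53.5, 59.7 and 49.4 CPM on BGI and 28, 34.2 and 25.5 CPM on Illumina in libraries 1, 2 and 4 (log2 ratio 0.87, adjusted p = 0.00587, with the block 1.58e-20, and 1.0 with GC content included). In mESCs it had 22.2, 31.3 and 23.6 CPM on BGI and 12.5, 18.6 and 13.5 CPM on Illumina in libraries 1, 3 and 5 (0.74, adjusted p = 0.0306). BGI was the higher in all 6 libraries. The peak was singled out after its values were seen. Between the cell types this peak was lower in mESCs on both platforms (-1.12 on BGI and -1.0 on Illumina).

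**Figure D5:**
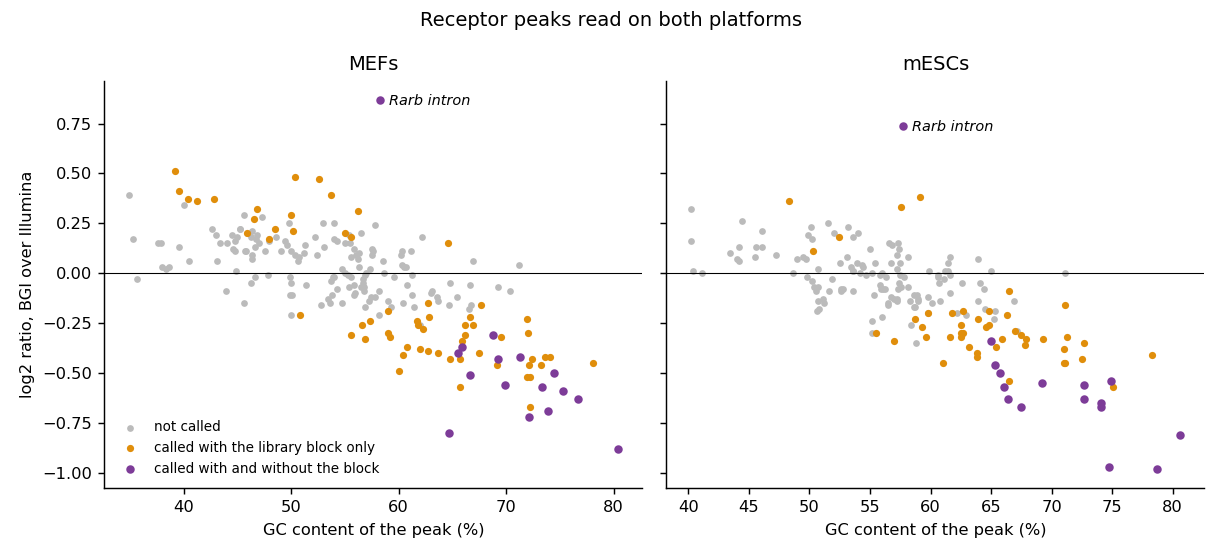
Each point is a member peak, with its GC content in percent on the x axis and the log2 ratio of BGI over Illumina on the y axis, for MEFs and mESCs. The ratios of the most GC rich peaks reached -0.88 and -0.98, and the Rarb intron peak lay at 0.87 and 0.74.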

How the data were processed

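The authors trimmed the Illumina reads to the BGI read length, aligned all reads to GRCm38 (mm10) with Bowtie2, removed duplicates, mitochondrial reads and reads without a unique position, and down-sampled the samples of each cell type to a common number of reads. They called peaks per sample with MACS2 and merged reproducible, fixed-width summits. The deposited tables hold raw read counts per peak, without normalization, for 4 peak sets. The deposited summit calls give the −log10 p of MACS2, which was used for Hnf4g only. The deposited peak lists hold positions without scores. Only the BGI columns of the count tables name their platform. The others were taken as Illumina, which was checked in each of the 6 libraries by the correlation of the BGI to Illumina ratio with that of the summit calls across peaks (Spearman rho 0.758 to 0.795).

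Counts were tested here over the whole peak set in edgeR 4.0.16 and R 4.3.3 by its quasi-likelihood test (two-sided, TMM normalization, default filter on low counts, which every member peak passed, and Benjamini-Hochberg adjusted p under 0.05). For each platform mESCs were compared with MEFs, and for each cell type BGI with Illumina. CPM are counts scaled to the reads in peaks, with n = 3 and SD over libraries. The SE was not estimated by the fit: it is the size of the log2 fold change divided by the square root of the F statistic of the test. The labels describe separate libraries of 3 biological replicates. The member genes, gene lists and tests were chosen with earlier results of these data known. Named peaks were the most open promoter peak of each gene, the 10 largest changes in each direction called on both platforms with at most 2 per gene, and the 5 genes with the most peaks. Sequences are from the GRCm38 reference. Some items are not reported here. Simulated counts were also put through the edgeR fit, and the outcome is not given here.

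Library numbers pair the platforms, since each library was split between them. After removal of group means, MEF samples of the same number correlated at r = 0.618 to 0.837 and those of other numbers at -0.676 to 0.298. For mESCs the values were 0.514 to 0.723 and -0.509 to -0.114. Alternatives were DESeq2 1.42.0, other scalings, no filter on low counts, the other platform's columns, other gene and promoter windows, and leaving out each library.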

Additional observations from a re-analysis of the deposited data

Results flagged for a closer look

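One promoter peak of Rxrb, at chr17:34034078-34034579, separated the cell types in opposite ways on the platforms. On BGI every MEF library was above every mESC library (log2 fold change -0.35, adjusted p = 0.051), and on Illumina every MEF library lay below every mESC library (0.07, adjusted p = 0.694). Neither passed the threshold, and whether the cell type difference itself differed between the platforms was not tested. Within MEFs this peak was higher on BGI with the library as a block (log2 ratio 0.31, adjusted p = 0.0168 by edgeR; 0.38, adjusted p = 0.00368 with GC content included), and within mESCs it did not pass (-0.16, adjusted p = 0.32).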

How the results depend on the processing

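For the comparison of mESCs with MEFs, requiring a change of at least 2-fold left 145 member peaks on BGI and 135 on Illumina. Leaving out each library in turn gave 209 to 218 member peaks on BGI and 200 to 206 on Illumina, and 67 to 74 and 77 to 80 promoter peaks. No paired analysis was possible for this comparison because the cell types share only library number 1. Of 1221 refits of 111 named values, 1197 kept their side of the threshold, 16 lost the call and 8 gained it. Among values called in the main fit or the refit, 0 changed direction. For values called in neither, the direction was not checked. In these settings the whole peak sets kept a median log2 fold change between -0.08 and 0.01.

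Between platforms the counts depended on the fit. In MEFs the library block gave 77 member peaks, the block with GC content 42, and DESeq2 35, with 44 of 221 left without an adjusted p. In mESCs the block gave 61. Leaving out each library without the block gave 0 to 42 in MEFs and 0 to 9 in mESCs. By edgeR, MEFs without library 1 or 2 gave 0 (36 and 31 at an unadjusted p under 0.05) and without library 4 gave 42, and mESCs without library 1 or 5 gave 0 (39 and 28 unadjusted) and without library 3 gave 9. The cause was not tested. A peak with few reads, such as those near 0 in mESCs, has a fold change that the depth limits.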
